A study of Rattus norvegicus with 6 samples.

Results

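The miRNAs of the miR-23/27/24 clusters were followed in rat lung after ischemia reperfusion (IR) and after sham surgery. Members were all listed mature miRNAs whose name is miR-23a, miR-23b, miR-27a, miR-27b or miR-24, whatever the arm or copy. The rule uses names only and found 11 of the 693 listed miRNAs, of which 630 are named rat miRNAs. The IR group held 3 libraries from Sprague-Dawley rat lung after the left hilum had been clamped and blood flow restored. The sham group held 3 libraries from Sprague-Dawley rats operated on without clamping, which the sample labels call control. All rats were young adult males under urethane anesthesia and ventilation, and the chest was opened on the left side. The length of reperfusion and the lobe taken for sequencing were not found in the text or labels read. Libraries of a group count as biological replicates in the paper, but no label ties a library to an animal, and p-values measure the spread between these libraries. The RNA came from lung tissue, in which fewer cells of a type and less of a miRNA per cell cannot be told apart.

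miR-23, miR-27 and miR-24 are produced from a pair of paralogous gene clusters, each copied as a single primary transcript that Drosha and Dicer cut into hairpins and then into mature miRNAs. The mature strand on the 5′ side of a hairpin is named 5p and that on the 3′ side 3p, and the strand that is not loaded into Argonaute is mostly degraded. Since the primary transcript is shared, members of a cluster are made together, while their mature levels also depend on cutting, strand choice and decay. In mouse and human work the clusters are known for endothelial expression. There miR-23 and miR-27 promote vessel sprouting by repressing the inhibitors Sprouty2 and Semaphorin 6A, and miR-24 represses the endothelial transcription factor GATA2. In mouse blood cells the miR-23a cluster is activated by PU.1 and restrains B cell formation.

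In the RefSeq annotation of the rat assembly GRCr8, Mir23a, Mir27a and Mir24-2 lie together on the minus strand of chromosome 19 with Zswim4 as a neighbour. Mir23b, Mir27b and Mir24-1 lie together on the minus strand of chromosome 17 within the annotated genes Aopep and Fancc. The positions on the authors' build are not known. RefSeq held a mature sequence for 10 of the 11 members, and rno-miR-23a-5p had no entry. The abundant arms are shown in pairs because a pair differs by so little that its reads can be mistaken for each other. Capitals mark the seed, bases 2 to 8 from the 5′ end, which pairs with target mRNAs.
rno-miR-23a-3p: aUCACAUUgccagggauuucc
rno-miR-23b-3p: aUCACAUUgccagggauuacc
rno-miR-27a-3p: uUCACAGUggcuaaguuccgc
rno-miR-27b-3p: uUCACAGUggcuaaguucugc
rno-miR-24-3p: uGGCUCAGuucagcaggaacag
The miR-23 pair differs by 1 substitution, U19A, counted from 1 at the 5′ end with the base of miR-23a-3p first. The miR-27 pair also differs by 1 substitution, C19U, with the base of miR-27a-3p first. Both changes lie outside the seed, so each pair has the same seed. rno-miR-24-3p is identical from Mir24-1 and Mir24-2, and its reads cannot be divided between the clusters. Among the named miRNAs of the table with a RefSeq sequence, 0 others had a seed of these members. The 7 bases of the miR-27 seed are found 1 position earlier, at bases 1 to 7, in miR-128-3p, and those of the miR-24-3p seed at bases 1 to 7 of miR-222-5p. Both pairings were chosen after the values were seen.
rno-miR-128-3p: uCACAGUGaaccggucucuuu
rno-miR-222-5p: gGCUCAGUagccaguguagau
The less abundant arms come from the other strand of the same hairpins and have seeds of their own. They are shown because miR-27a-5p had the largest log2 fold change of the members tested and because the miR-24 5p arms, unlike miR-24-3p, differ in sequence between the gene copies.
rno-miR-27a-5p: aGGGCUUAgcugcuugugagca
rno-miR-27b-5p: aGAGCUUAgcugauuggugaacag
rno-miR-24-2-5p: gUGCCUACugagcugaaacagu
rno-miR-24-1-5p: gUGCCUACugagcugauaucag

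Levels are given as normalized CPM, the reads of a miRNA per 1000000 miRNA reads of its library after TMM normalization, which scales each library by a factor computed over the tested miRNAs. Errors are SDs between libraries. The IR libraries held 3775663 to 11248166 miRNA reads and the sham libraries 7459979 to 10718899. The 11 members took 2.55% to 3.80% of the reads of an IR library and 2.66% to 4.09% of a sham library. miR-21-5p took 24.2% of the reads of sham replicate 3 and 9.66% to 13.5% of the others, and the TMM factor of that library was 0.867. The groups were compared by edgeR's quasi-likelihood test over the 418 miRNAs with enough reads. A miRNA was called where its Benjamini-Hochberg adjusted p was under 0.05. Of the 11 members, 9 had enough reads.

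After IR, miR-23a-3p fell and its near-copy miR-23b-3p lay lower by a similar amount, while miR-27a-3p, miR-27b-3p and miR-24-3p, made from the same primary transcripts, showed differences smaller than their errors. miR-27a-5p, the minor strand of the Mir27a hairpin, was 2.51 times the sham level without passing the test. Of the 9 members tested, 1 was lower, 0 were higher and 8 did not pass. Over all 418 miRNAs, 2.63% were lower and 7.89% were higher. The median log2 fold change was 0.06 for the 9 members, with 5 above and 4 below 0, and -0.01 over all 418. At an unadjusted p under 0.05 in the same fit, 3 members passed (miR-23a-3p, miR-23b-3p and miR-27a-5p), against 26.3% of all miRNAs tested. The same 3 were called by DESeq2 and by edgeR's likelihood ratio test, which called 15.3% and 15.8% of the miRNAs they tested. Among the 9, the groups did not overlap for 2 members, both lower in IR, against 16.7% of all tested miRNAs lower and 17.2% higher without overlap. A count of 2 of 9 is close to that background.

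**Figure D1:**
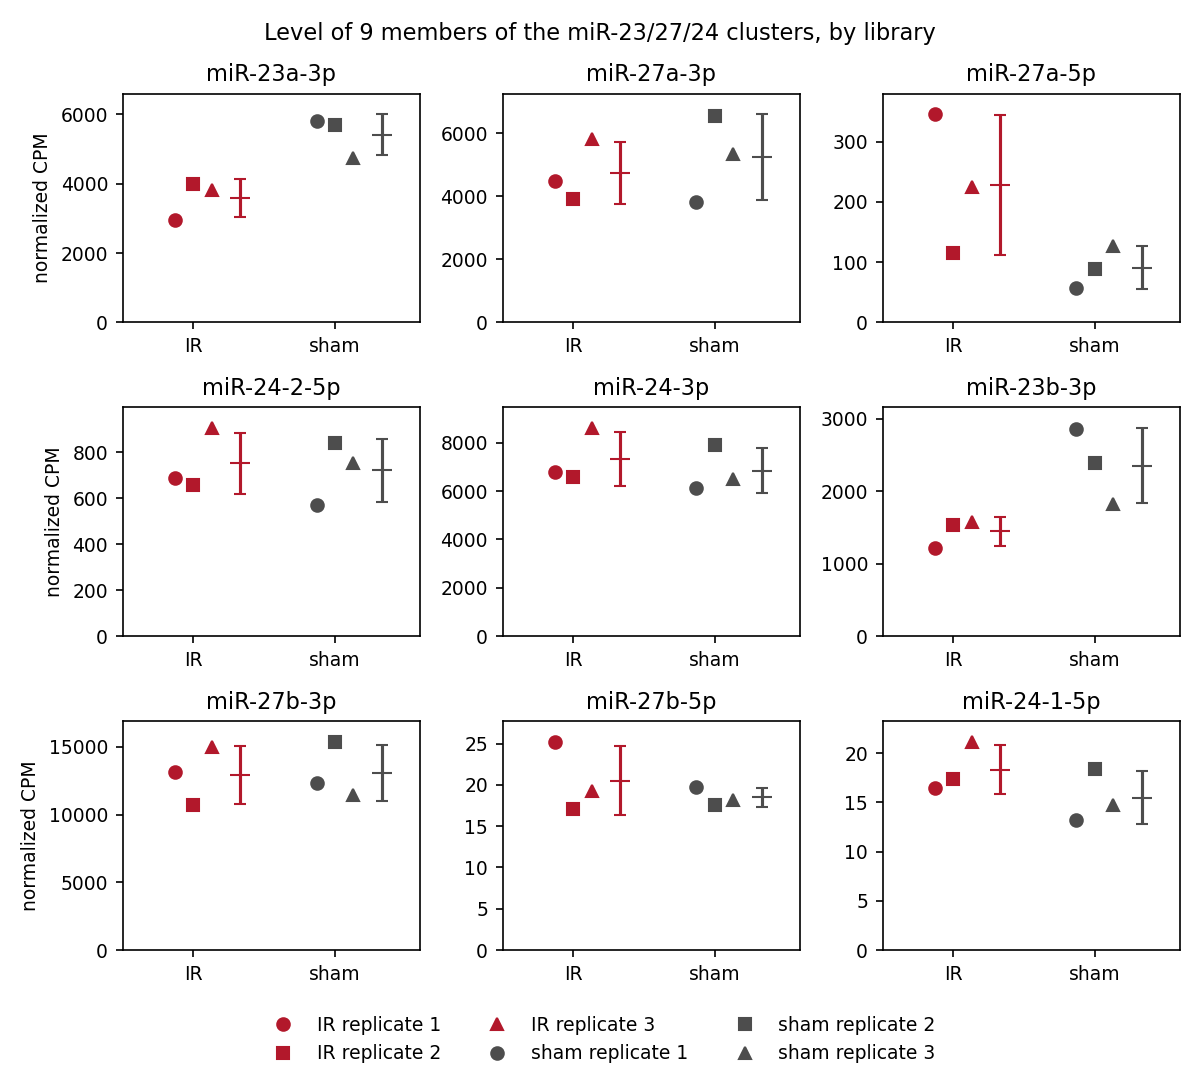
Level in normalized CPM (vertical axis, from 0) of the 9 members with enough reads, in 3 IR libraries (red, left) and 3 sham libraries (grey, right), with 1 point per library and the mean and SD beside them. All IR points lie below all sham points for miR-23a-3p and miR-23b-3p, and the groups overlap for the other 7.

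rno-miR-23a-3p, which in human cells represses mitochondrial glutaminase, measured 2956, 3976 and 3822 normalized CPM in IR replicates 1 to 3, against 5802, 5690 and 4741 in sham replicates 1 to 3. Every IR library was below every sham library. The means were 3584 ± 550 in IR and 5411 ± 583 in sham (SD, n = 3 each). The log2 fold change was -0.59 (standard error 0.16, 95% interval -0.95 to -0.23, edgeR quasi-likelihood adjusted p = 0.0494), and sham was 1.51 times IR. The call lies at the threshold. Without any 1 of the 6 libraries miR-23a-3p was not called, with an adjusted p of 0.0615 to 0.164 and a log2 fold change of -0.69 to -0.52.

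rno-miR-23b-3p measured 1223, 1539 and 1577 normalized CPM in IR replicates 1 to 3, against 2856, 2390 and 1824 in sham replicates 1 to 3. Again no IR library reached the lowest sham library, which was sham replicate 3. The log2 fold change was -0.70 (standard error 0.19, 95% interval -1.14 to -0.27), and the adjusted p of 0.0523 from edgeR lay just above the threshold. Over the 6 edgeR fits that each left out 1 library, the log2 fold change was -0.87 to -0.57 and the adjusted p 0.0369 to 0.169. Only the fit without sham replicate 3 called miR-23b-3p, with a log2 fold change of -0.87 and an adjusted p of 0.0369. With the reads of the near-identical pairs summed before the fit, miR-23 as a whole had a log2 fold change of -0.63 with an adjusted p of 0.0439 from edgeR. The ratio of miR-23a-3p to miR-23b-3p reads was 2.42, 2.58 and 2.42 in IR replicates 1 to 3, against 2.03, 2.38 and 2.60 in sham replicates 1 to 3. The groups overlapped (exact permutation test, two-sided, p = 0.5).

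rno-miR-27b-3p, which in human cells represses CYP1B1, was the most abundant member. It measured 13141, 10688 and 14980 normalized CPM in IR replicates 1 to 3, against 12337, 15359 and 11446 in sham replicates 1 to 3. The groups lay across each other, and the log2 fold change was -0.01 (standard error 0.17, 95% interval -0.41 to 0.39, adjusted p = 0.988 from edgeR). rno-miR-27a-3p, a repressor of the adipocyte regulator PPARγ in mouse and human cells, measured 4491, 3913 and 5822 in IR and 3830, 6550 and 5342 in sham. Its groups overlapped too, and the log2 fold change was -0.14 (standard error 0.22, 95% interval -0.66 to 0.37, adjusted p = 0.701 from edgeR). The ratio of miR-27a-3p to miR-27b-3p reads was 0.342, 0.366 and 0.389 in IR replicates 1 to 3, against 0.310, 0.426 and 0.467 in sham replicates 1 to 3, with the IR values inside the sham range (exact permutation test, two-sided, p = 0.6). A log2 fold change of the size found for miR-23a-3p, -0.59, lies inside the interval of miR-27a-3p and outside that of miR-27b-3p.

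rno-miR-24-3p, whose loss protects heart endothelium from apoptosis in mice, measured 6779, 6571 and 8602 normalized CPM in IR replicates 1 to 3, against 6132, 7897 and 6488 in sham replicates 1 to 3. Its log2 fold change was 0.10 (standard error 0.16, 95% interval -0.27 to 0.47, adjusted p = 0.714 from edgeR). The 5p arms of the Mir24 copies differ in sequence. miR-24-2-5p, annotated to Mir24-2 in the miR-23a cluster, averaged 751 ± 134 in IR and 720 ± 137 in sham, and miR-24-1-5p, annotated to Mir24-1 in the miR-23b cluster, 18.3 ± 2.49 in IR and 15.5 ± 2.68 in sham (SD, n = 3 each). Neither was called, with log2 fold changes of 0.06 (95% interval -0.38 to 0.50) and 0.25 (95% interval -0.27 to 0.77). miR-24-2-5p had 41.9, 37.9 and 42.8 reads for each miR-24-1-5p read in IR replicates 1 to 3, against 43.1, 45.5 and 50.8 in sham replicates 1 to 3. The ranges did not overlap, by a small margin (exact two-sided permutation test, p = 0.1, which no split of 3 against 3 can go below, adjusted 0.3 over 9 measures).

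miR-24-1-5p shares its locus with rno-miR-3074, annotated on the opposite strand, and 20 bases of the mature sequences are reverse complements. In every library the reads listed for miR-3074 were 85.7% to 96.7% of those listed for miR-24-1-5p. In IR replicates 1 to 3 miR-3074 had 98, 59 and 241 reads beside 109, 61 and 251 for miR-24-1-5p. In sham replicates 1 to 3 it had 90, 198 and 119 reads beside 105, 208 and 132. Whether the counting used strand was not found in the sources used here, so the reads of these 2 names cannot be told apart.

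**Figure D2:**
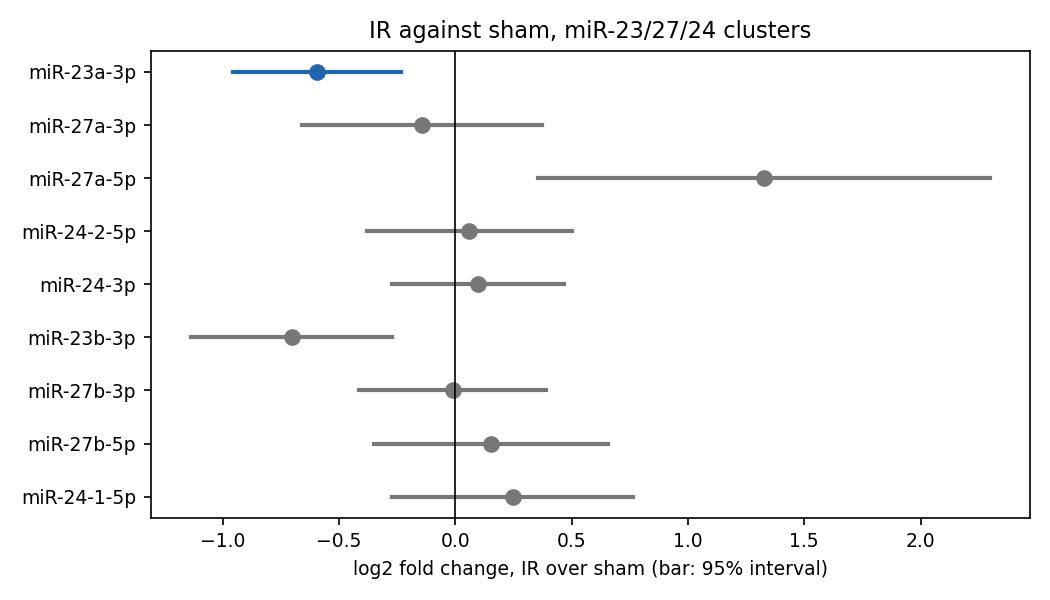
Log2 fold change of IR over sham (horizontal axis) for the 9 members with enough reads, from 3 libraries per group, with the 95% interval from edgeR's quasi-likelihood fit. The blue point, miR-23a-3p at -0.59, has an adjusted p under 0.05 and the grey points do not; miR-27a-5p lies farthest to the right at 1.33.

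rno-miR-27a-5p was higher on average after IR, opposite to miR-23a-3p, but it was not called. It measured 345, 115 and 224 normalized CPM in IR replicates 1 to 3, against 57.0, 89.6 and 126.9 in sham replicates 1 to 3. IR replicates 1 and 3 lay above all sham libraries, while IR replicate 2 lay below sham replicate 3. The log2 fold change was 1.33 (standard error 0.42, 95% interval 0.35 to 2.30, edgeR quasi-likelihood adjusted p = 0.0828). Without IR replicate 1, the highest library, the log2 fold change was 0.86, and without IR replicate 2 it was 1.64, with adjusted p of 0.254 and 0.0488.

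Set against its own hairpin partner the groups separated. For every 100 reads of miR-27a-3p there were 7.69, 2.93 and 3.85 reads of miR-27a-5p in IR replicates 1 to 3, against 1.49, 1.37 and 2.38 in sham replicates 1 to 3. All 3 IR values were above all 3 sham values, and the mean log2 ratio was -4.50 ± 0.72 in IR and -5.89 ± 0.43 in sham (SD, n = 3 each), a difference of 1.39 or 2.62-fold. The exact permutation test (two-sided) gave p = 0.1, the smallest it allows, and 0.3 after Benjamini-Hochberg adjustment over 9 such measures. This ratio is taken within a library and does not depend on scaling. It does depend on single libraries. Leaving out 1 library gave log2 differences from 0.99 (without IR replicate 1) to 1.69 (without IR replicate 2). The same exact test then gave p of 0.1 to 0.2. In the paralogous hairpin the 5p arm was rarer. rno-miR-27b-5p had 0.192, 0.160 and 0.128 reads for every 100 of miR-27b-3p in IR replicates 1 to 3, against 0.160, 0.114 and 0.159 in sham replicates 1 to 3, and these ranges overlapped (exact permutation test, two-sided, p = 0.6). Its own level was 20.5 ± 4.20 normalized CPM in IR and 18.5 ± 1.15 in sham (SD, n = 3 each; log2 fold change 0.15, 95% interval -0.35 to 0.66).

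Members of the same transcript were also compared within libraries, a comparison added after the values were seen. There were 9.30, 14.4 and 10.5 reads of miR-23b-3p for every 100 of miR-27b-3p in IR replicates 1 to 3, against 23.1, 15.6 and 15.9 in sham replicates 1 to 3. The IR values were all below the sham values, with a mean log2 ratio of -3.16 ± 0.32 in IR and -2.48 ± 0.32 in sham (SD, n = 3 each), so that the IR ratio was 0.626 of the sham ratio (exact permutation test, two-sided, p = 0.1, adjusted 0.3). In the miR-23a cluster there were 65.8, 101.6 and 65.6 reads of miR-23a-3p for every 100 of miR-27a-3p in IR, against 151, 86.9 and 88.7 in sham. IR replicate 2 lay within the sham range here (exact permutation test, two-sided, p = 0.3).

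**Figure D3:**
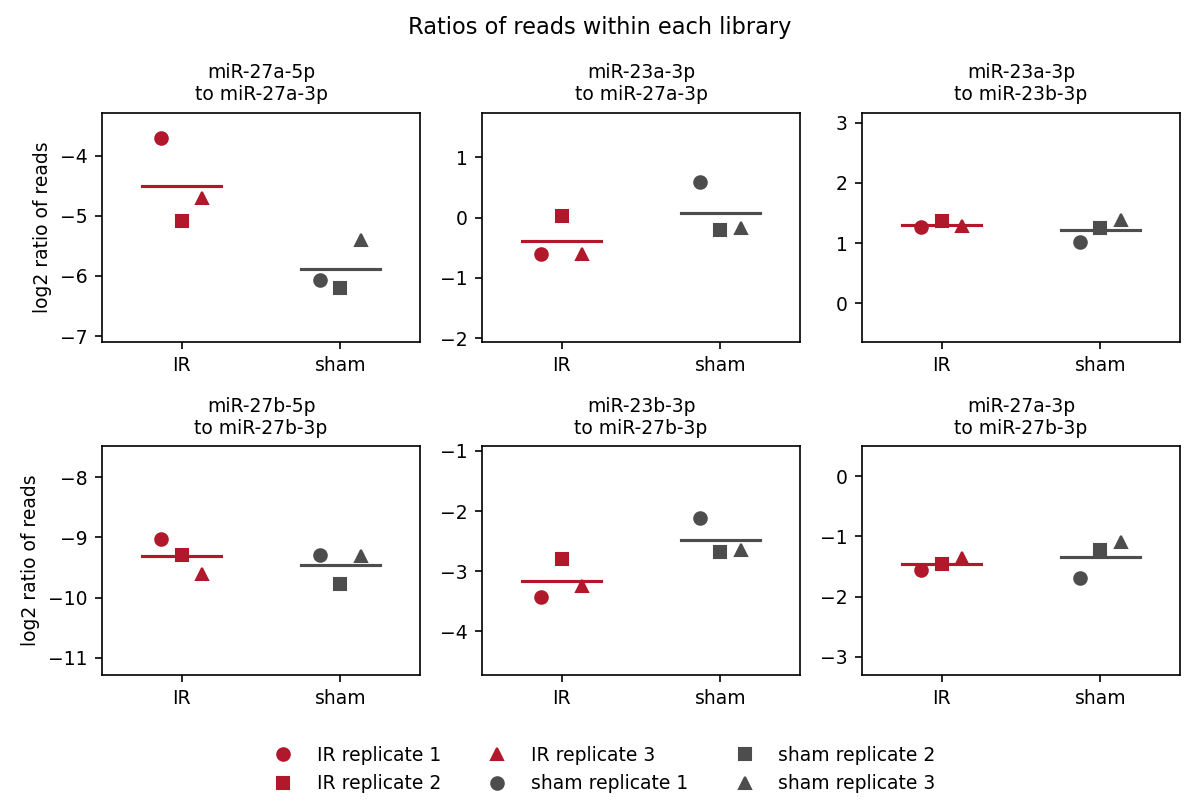
Log2 ratio of the reads of pairs of members within each library (vertical axis, equal spans) in 3 IR libraries (red, left) and 3 sham libraries (grey, right), with 1 point per library and a line at the mean. miR-27a-5p to miR-27a-3p lies higher in all IR libraries and miR-23b-3p to miR-27b-3p lower, while the other 4 ratios overlap between the groups.

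rno-miR-23a-5p and rno-miR-23b-5p, the minor strands of the miR-23 hairpins, had too few reads for the test. miR-23a-5p had 5 reads in IR and 2 in sham, summed over libraries, a ratio of 3.34 per total reads (95% exact interval 0.547 to 35.1). miR-23b-5p had 20 reads in IR and 24 in sham, a ratio of 1.11 (95% exact interval 0.583 to 2.10). These intervals pool the reads of a group, so they cover counting error only and leave out the spread between libraries. miR-23b-5p had 13, 2 and 5 reads in IR replicates 1 to 3, against 6, 11 and 7 in sham replicates 1 to 3. No molecular identifiers were found in the sources used here, so the counting error itself may be larger. Of the reads of both arms together, the 5p arm made up 0.00302% for Mir23a, 0.0448% for Mir23b, 2.92% for Mir27a and 0.144% for Mir27b over the 6 libraries. Mir24-1 and Mir24-2 are left out here because they share miR-24-3p.

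In IR the order of levels was miR-27b-3p, miR-24-3p, miR-27a-3p, miR-23a-3p, miR-23b-3p, miR-24-2-5p, miR-27a-5p, miR-27b-5p and miR-24-1-5p. In sham the order was the same except that miR-23a-3p stood before miR-27a-3p. Only neighbours in the order were compared. Of these, miR-23a-3p and miR-27a-3p differed by less than the sum of their SDs in both groups, as did miR-27b-5p and miR-24-1-5p. miR-24-3p and miR-23a-3p did so in sham. The mature miRNAs are 21 to 24 bases long, and the levels have no length term.

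The summed level of all 11 members was 29667, 27494 and 35972 normalized CPM in IR replicates 1 to 3, against 31618, 38852 and 30752 in sham replicates 1 to 3. The groups overlapped, and the mean log2 difference was -0.12 (exact permutation test, two-sided, p = 0.5).

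Other miRNAs of blood vessels and of the cell types in lung were set beside these values by lists of names. The counts called in each list stand against 2.63% lower and 7.89% higher over all 418 miRNAs tested. Most lists are too short for a count of 0 or 1 to differ from those shares. The endothelial miR-126 list had 0 of 3 called and a summed level of 83214 to 105486 normalized CPM in IR and 88121 to 111275 in sham. Of a list of regulators of vessel growth and endothelium, 36 of 43 listed arms were tested, 2 were lower (miR-92a-3p at a log2 fold change of -0.73, a repressor of vessel growth in mice, and miR-146a-5p at -0.85, which restrains NF-κB signalling), 0 were higher, and the median log2 fold change was -0.07. Among blood cell lists, the leukocyte miR-223 and miR-142 list had 0 of 4 called and summed to 1315 to 1645 in IR and 1812 to 3046 in sham. The lymphocyte miR-150 and miR-342 list had 1 of 4 lower (miR-150-5p at -0.77) and summed to 972 to 1163 in IR and 1693 to 1766 in sham. The erythroid list, with 0 of 4 called, ranged from 1493 to 2155 in IR and from 1234 to 4048 in sham. For the epithelial miR-200 family 0 of 9 were called, and the sum was 19074 to 19616 in IR and 13191 to 16187 in sham. Smooth muscle miR-143 and miR-145 had 0 of 4 called, with a median log2 fold change of -0.12. The striated muscle list had 1 of 6 higher (miR-1-3p at 1.31), but its median was -0.01. Its summed levels overlapped, at 519 to 595 in IR and 549 to 575 in sham. The most abundant arm of that list, miR-1b, was at -0.06 and not called. Each arm of the lists had reads in at least 1 library. The summed levels of the leukocyte and lymphocyte lists thus lay lower in IR, and those of the epithelial list higher. Among single tested miRNAs, 16.7% lay lower and 17.2% higher without overlap. Not every arm of these lists followed its sum. The groups overlapped for miR-142-5p, the most abundant leukocyte arm (log2 fold change -0.61). They also overlapped for epithelial miR-141-3p (0.005) and miR-141-5p (-0.16). These sums were not tested. The median log2 fold change was -0.70 for the leukocyte list, -0.48 for the lymphocyte list and 0.33 for the epithelial list. It was -0.93 for the erythroid list, whose summed levels overlapped between the groups. The part of these lists in the miR-23 values was not tested.

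The tested miRNAs outside the clusters whose log2(normalized CPM + 1) was most like that of miR-23a-3p over the 6 libraries were miR-26b-5p (Pearson's r 0.934), miR-107-3p (0.924), miR-181b-1-3p (0.910), miR-17-1-3p (0.910) and miR-214-3p (0.903). For miR-27a-5p they were miR-3065-3p (0.952), miR-21-3p (0.925), miR-30e-3p (0.922), miR-338-5p (0.905) and miR-31a-5p (0.905). These are the top of 409 miRNAs compared over libraries that share the group difference and the scaling, and they are a description only. miR-128-3p, with the miR-27 seed 1 position earlier, measured 384, 505 and 451 normalized CPM in IR replicates 1 to 3, against 678, 1122 and 1208 in sham replicates 1 to 3. It was lower in all IR libraries (log2 fold change -1.17, adjusted p = 0.0229 from edgeR), while the more abundant miR-27a-3p and miR-27b-3p were not called. miR-222-5p, with the miR-24-3p seed 1 position earlier, measured 2.87, 2.28 and 2.44 normalized CPM in IR replicates 1 to 3, against 2.90, 2.75 and 2.13 in sham replicates 1 to 3. Its groups overlapped and it was not called (log2 fold change -0.03, adjusted p = 0.986 from edgeR).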

How the data were processed

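Small RNA libraries of 3 IR and 3 sham samples of rat lung were sequenced, 1 library per sample. The authors deposited whole read counts per miRNA and, beside them, TPM values, which are the counts scaled to sum to 1000000 in each library, with no length term. The submitters' processing notes name Bowtie. The genome build, miRNA annotation, counting tool and handling of multiply matching reads were not found in the sources used here, which did not include the study's scheme of its small RNA workflow, and reads of near-identical members may be exchanged. Tests on the counts used edgeR 4.0.16 (filterByExpr with a minimum count of 10 and a minimum total of 15, TMM, quasi-likelihood test, no covariate), with DESeq2 1.42.0 and limma 3.58.1 as alternatives, under R 4.3.3. Plots came from matplotlib 3.10.9 in Python 3.11.15. Standard errors are the log2 fold change divided by the square root of F. The code was tested on simulated data.

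Groups came from the sample labels. Members, lists and tests were chosen with earlier results of these data known. Named were all members, miRNAs sharing their seed, listed arms that passed the test or led their list, and the 5 miRNAs most like miR-23a-3p and miR-27a-5p. Of the 9 measures with 1 value per library, 5 were added after the values were seen (the miR-23 to miR-27 ratios and those of the 5p arms other than miR-27a-5p), as were the comparisons with miR-128-3p, miR-222-5p and miR-3074. Libraries of a group differed beyond sampling noise. Alternatives were other scalings, filters, tests and pseudocounts, the replicate block, near-identical reads summed, and leaving out each library.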

Additional observations from a re-analysis of the deposited data

How the results depend on the processing

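The lower level of miR-23a-3p kept its direction under every alternative run but passed the edgeR threshold narrowly. Its log2 fold change and adjusted p were -0.59 and 0.0569 with RLE size factors, -0.59 and 0.0764 with library totals only, -0.60 and 0.0524 with TMM without miR-21-5p and miR-143-3p, -0.57 and 0.0581 with no filter, -0.55 and 0.0838 with 10 reads required in every library, -0.60 and 0.0508 with limma-voom, and -0.57 in limma-trend on log2(TPM + 1) and log2(TPM + 10), with 0.0878 and 0.0908. DESeq2 and the likelihood ratio test called 3 members each, as did an unadjusted p, while 0 members were called under RLE, totals only, that reduced TMM, 10 reads, limma-voom and both limma-trend fits. With no filter 1 was called, miR-27a-5p. Leaving out 1 library gave 0 to 1 members called and -0.69 to -0.52 for miR-23a-3p. Over all miRNAs 44 were called, against 26 with 10 reads in every library, 75 of 491 with DESeq2, 110 at an unadjusted p, and 2 to 57 without 1 library, the 2 being without IR replicate 3. miR-27b-3p lay so near 0 that its sign turned, to 0.013 with totals only, 0.011 with no filter, 0.039 with 10 reads, 0.015 in both limma-trend fits, and -0.11 to 0.14 without 1 library (0.10 without IR replicate 2). Also uncalled, miR-24-2-5p ranged from -0.11 to 0.21 without 1 library (-0.05 without IR replicate 3), miR-27a-3p from -0.35 to 0.080 and miR-27b-5p from -0.066 to 0.25. With the replicate number as a block, edgeR gave -0.60 for miR-23a-3p with an adjusted p of 0.178 and called 0 members and 0 miRNAs, with 3 members and 84 miRNAs at an unadjusted p under 0.05. Libraries with the same number did not deviate together (correlations of -0.39 to -0.18). These deviations were taken from group means of 3 libraries, so they cannot settle whether same-numbered samples were paired. The cause of these shifts was not tested. The smallest library, IR replicate 2, and 3 libraries a group limit the precision.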
